A study of Mus musculus with 3 samples.

Results

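The stretch of the mouse X chromosome from 60 to 95 Mb (build mm9) spans the boundary at 72.99 Mb where the tandem repeat Dxz4 separates the megadomains of the inactive X. Its members were the deposited rows of the X whose midpoint lay from 60 Mb to below 95 Mb and whose flag was 0, which marks a row with a value. There were 697 such rows among 1400 positions of the stretch, 3987 rows with a value on the whole X and 94429 on the X and autosomes. Of the 697, 262 lay on the proximal side of the boundary, toward the centromere, and 435 on the distal side, toward Xist. The values came from female mouse embryonic stem cells of strain 129SvJae, kept in 2i and LIF medium and then placed in medium for epiblast-like cells for 2 or 4 days. DNA lying with Xist was captured with biotinylated antisense probes and sequenced, with 1 library on day 2 and 1 on day 4. No treatment, allele or genotype set the groups apart other than the days. A day 2 input library is also labelled, and its own values were not used here.

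Xist is the long noncoding RNA that is made from the X to be silenced and spreads along that chromosome in cis. It recruits factors that remove active marks, deposit repressive ones and silence most genes. Contact maps of the inactive X show a pair of very large domains, the megadomains, that meet at Dxz4, a tandem repeat rich in sites for the insulator protein CTCF. The megadomains were not measured here, and only the position of the boundary was used.

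A RefSeq gene table of a later build (GRCm38.p6) gives the order of genes around Dxz4, which that table lists as 4933407K13Rik; it was used for names and order only. Proximal of Dxz4 it lists, among others and in order, Fmr1 (the fragile X gene), Ids (a lysosomal sulfatase), Mtm1 (myotubularin), Flna (filamin A, an actin crosslinker), F8 (coagulation factor VIII) and Rab39b (a small GTPase). Distal of it come Pls3 (the actin-bundling protein plastin), Dmd (dystrophin), Gk (glycerol kinase), Nr0b1 (the nuclear receptor DAX-1), Il1rapl1 (a synaptic adhesion protein), Pola1 (a DNA polymerase subunit) and Zfx (a zinc finger factor), and then Xist. No gene was placed in a window, because the builds differ.

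Each value is an enrichment ratio, taken to be pulldown over input, in a 100 kb window that moves in 25 kb steps. Neighbouring rows therefore overlap, and windows are not replicates. Read depth is unknown. With 1 library per day no difference below has a replicate check or a p-value, and quartiles describe the spread over windows only. Rows without a value made up 50.2% of the stretch, 49.6% of its proximal and 50.6% of its distal side, against 37.5% on the rest of the X.

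The first comparison asked how the stretch stood against the rest of the X and its autosomal background. On day 2 the median over its windows was 12.24 (quartiles 7.28 and 18.43), and that of the rest of the X was 10.45 (4.97 and 17.43). On day 4 the stretch was at 16.80 (12.05 and 22.77) and the rest of the X at 16.54 (8.74 and 22.19). The stretch was thus 1.17 times as high as the rest on day 2 and 1.02 times as high on day 4, with quartiles that overlapped widely on both days. Over the autosomal medians of 0.38 and 0.29 it stood 32.2-fold on day 2 and 57.9-fold on day 4. Its lowest windows, 1.71 and 2.62, were still above these medians.

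The proximal side had the higher median on both days, which on day 2 rested on its part nearest the boundary. On day 2 its median was 13.15 (quartiles 7.30 and 19.45) and that of the distal side 11.38 (7.17 and 17.87), a ratio of distal to proximal of 0.865. On day 4 the medians were 20.78 (14.92 and 25.19) and 15.07 (10.01 and 19.73), a ratio of 0.725. On both days the quartiles of the sides overlapped. With the 90 windows from 70 Mb to the boundary left out, a setting added after the values were seen, the day 2 ratio turned to 1.23: the other 172 proximal windows had a median of 9.23.

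The flanks of equal length differed in opposite ways. The 669 windows from 25 to 60 Mb were higher than the stretch, with medians of 15.53 and 20.52. The 897 windows from 95 to 130 Mb had lower medians, 6.18 and 7.95, although they hold the highest window of the day 2 library, at 82.67. The upper quartile of that right flank was 6.23 times its lower quartile on day 2 and 7.67 times on day 4. In the stretch the same quotient was 2.53 and 1.89, between that flank and the left one, at 2.20 and 1.58.

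**Figure D1:**
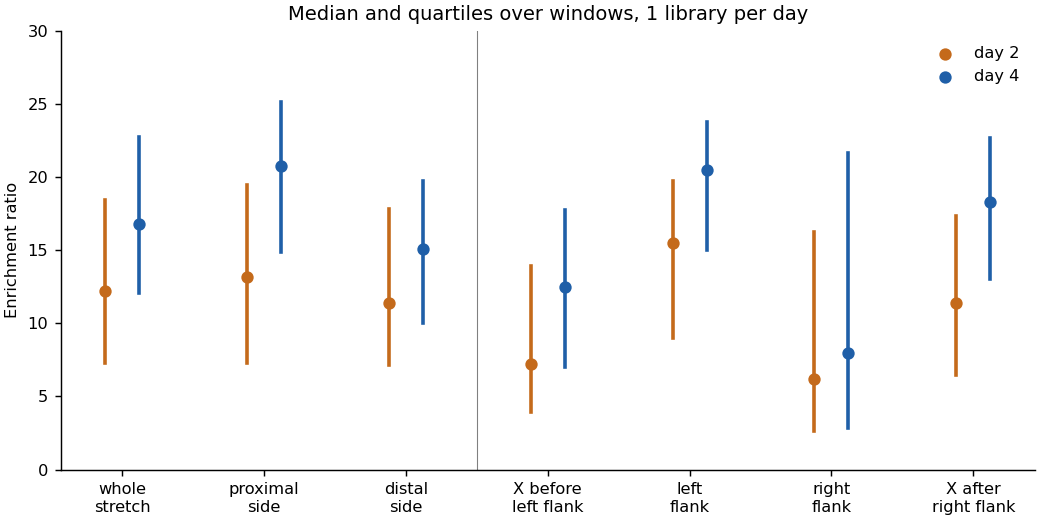
Median enrichment ratio (points) and quartiles (bars) over windows on day 2 and day 4, for the whole stretch, its sides and the rest of the X cut into pieces; the flanks are as long as the stretch. The proximal side, at 13.15 and 20.78, lies above the distal side, at 11.38 and 15.07, while the quartile bars overlap.

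The second question was how recovery varied along the stretch, read in bins of 1 Mb. Recovery was not even on either side: broad high parts alternated with low ones. On the proximal side it was low from 60 to 66 Mb, where the bins with 10 or more windows had day 2 medians of 3.45 (61 to 62 Mb), 3.84 (64 to 65 Mb) and 3.89 (65 to 66 Mb). Near the boundary it was highest on day 2, with 26.10 from 71 to 72 Mb and 21.87 from 70 to 71 Mb. Next came 68 to 69 Mb, at 18.08.

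On day 4 the same bins led in another order. The bin from 68 to 69 Mb was then the highest of the proximal side, at 28.73, followed by 71 to 72 Mb at 24.95 and 70 to 71 Mb at 24.58. The lowest bins were the same as on day 2, with 6.29 from 61 to 62 Mb, 7.44 from 64 to 65 Mb and 7.73 from 65 to 66 Mb. The lead on the proximal side therefore passed from 71 to 72 Mb to 68 to 69 Mb. The bin that adjoins the boundary, 72 to 73 Mb, was lower on both days, at 17.49 and 16.61.

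The distal side held 3 raised parts with low ground between them, of which the first was only about as high as the X median on day 2 and below it on day 4. The bin from 74 to 75 Mb had a median of 11.32 on day 2 and 13.66 on day 4, and that from 82 to 83 Mb had 17.86 and 19.12. The bin from 91 to 92 Mb was the highest of the whole stretch on both days, at 30.47 and 29.22. Its neighbours were lower on day 2, at 15.25 (90 to 91 Mb) and 15.19 (92 to 93 Mb).

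The low ground of the distal side was thinly measured. From 76 to 80 Mb only 24 of 160 rows had a value, and the medians of the 4 bins lay between 2.25 and 3.45 on day 2 and between 3.01 and 3.68 on day 4. From 86 to 87 Mb (10 windows) the medians were 2.29 and 3.10, and from 87 to 88 Mb (14 windows) they were 2.30 and 3.25. These were the lowest distal bins with 10 or more windows on both days, ahead of 85 to 86 Mb at 4.53 and 5.56. The longest gaps without any value lay in or beside such low parts, at 62087501 to 63487500 (1400 kb) and 88187501 to 89537500 (1350 kb).

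Low levels and missing rows went together in this stretch. Among windows with under 25% of rows within 500 kb lacking a value the medians were 18.26 on day 2 and 22.32 on day 4 (293 windows). Where 50% or more were lacking they were 3.51 and 6.25 (142 windows). Taking 1 row in 4 so that the 178 windows left had no overlap, Spearman's rho between level and share of missing rows was -0.79 on day 2 and -0.78 on day 4; on the rest of the X it was -0.52 and -0.53 (820 windows). These windows share a library and the rule behind the missing values, which no source used here states, and its part in the low levels was not tested.

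**Figure D2:**
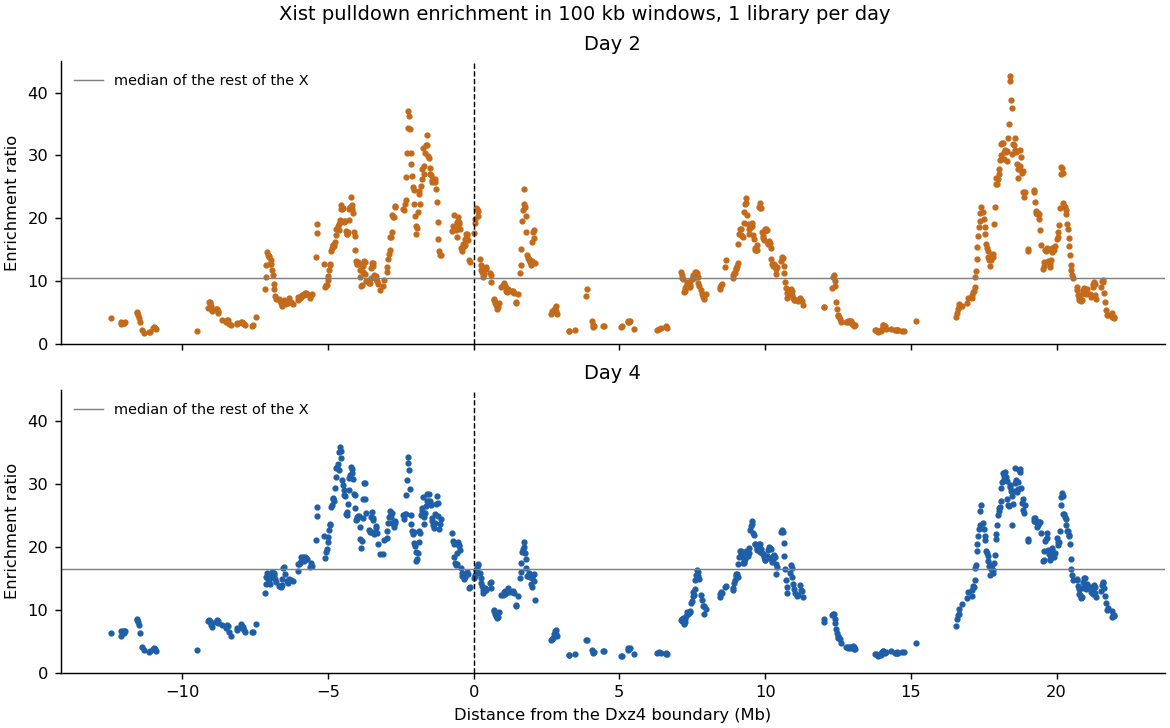
Enrichment ratio of each of the 697 windows against distance from the Dxz4 boundary in Mb (proximal is negative), for day 2 above and day 4 below, with the median of the rest of the X as a line (10.45 and 16.54). On both days high parts stand left of the boundary and toward the right end with low ground between them, and the highest window is 42.67 on day 2 and 35.88 on day 4.

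Single windows ranged over more than an order of magnitude. On the proximal side the highest day 2 window was at 70737501 to 70762500, with 37.03 on day 2 and 34.25 on day 4. The highest day 4 window was at 68387501 to 68412500, with 19.71 on day 2 and 35.88 on day 4. The lowest day 2 window, at 61662501 to 61687500, had 1.71, followed by 3.65 on day 4. The lowest of day 4 lay at 61837501 to 61862500, with 3.35 after 1.84 on day 2.

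On the distal side the highest window of day 2 was at 91387501 to 91412500, with 42.67 on day 2 and 29.91 on day 4. The highest of day 4 was nearby at 91562501 to 91587500, with 32.53 on day 4 and 32.72 on day 2. The window at 86837501 to 86862500 was the lowest of the side on both days, with 1.98 and 2.62. In neither library was a window here the highest of the X: among 3987 X windows the 42.67 ranked 10 on day 2 and the 35.88 ranked 59 on day 4.

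High windows, those above the 90th percentile of X windows (23.3 on day 2 and 26.7 on day 4), were about as common here as on the X as a whole. They were 83 of 697 (11.9%) on day 2 and 79 (11.3%) on day 4, against 10% and 9.98% of all X windows by the choice of threshold. The sides went different ways: the proximal side had 35 (13.4%) and then 48 (18.3%), the distal side 48 (11.0%) and then 31 (7.13%). Low windows, below the 10th percentile (2.68 and 4.23), were 33 (4.73%) and 62 (8.90%), against 9.93% and 9.98% of the X. On day 2 they were 25 (5.75%) of the distal windows and 8 (3.05%) of the proximal ones. On day 4 they were 53 (12.2%) and 9 (3.44%).

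The high windows formed 7 runs of touching rows on day 2 and 11 on day 4. The longest on day 2 was distal, at 90887501 to 91912500, 1025 kb long with a mean of 30.2 on day 2 and 28.3 on day 4. The longest proximal run of day 2 was at 71162501 to 71712500 (550 kb), with means of 28.0 and 25.8. On day 4 the longest proximal run lay elsewhere, at 68137501 to 68587500 (450 kb), with a mean of 18.8 on day 2 and 31.1 on day 4. The longest distal run of day 4, at 91487501 to 91837500 (350 kb, means 29.4 and 29.9), lay within the day 2 run.

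All 31 distal windows that were high on day 4 had been high on day 2, and they were 64.6% of the 48 high on day 2. On the proximal side the days shared 14 high windows, 40% of the 35 of day 2 and 29.2% of the 48 of day 4. Against the threshold of each day, the high part of the distal side thus stayed in place and became shorter, while on the proximal side most day 4 high windows were at places not high on day 2. All 33 windows low on day 2 were low on day 4 as well, and made up 53.2% of the 62 low then. The same overlaps were not computed over all X windows. Whether these shares are particular to the stretch or its sides is therefore not known.

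The third question was whether recovery changed at the Dxz4 boundary itself. The row that holds the boundary, 72987501 to 73012500, had 17.63 on day 2 and 15.09 on day 4. The 5 rows before it, from 72862501, had no value. On the near edge of that gap the level was 13.12 on day 2 and 13.67 on day 4, in the row that ends at 72862500.

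Within 250 kb the medians on the left were 16.62 on day 2 and 15.65 on day 4 (5 windows), and on the right 19.86 and 15.92 (9 windows). Within 500 kb they were 15.85 and 15.73 on the left (15 windows) and 12.60 and 15.09 on the right (17 windows). Within 1 Mb they were 17.49 and 16.61 on the left and 11.27 and 13.43 on the right (25 and 29 windows). The right side was higher or lower on day 2 depending on the reach, and the ranges overlapped at each reach on both days.

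The highest day 2 values within 1 Mb of the boundary formed a crest just distal of it. Day 2 values rose from 17.63 in the boundary row to 21.63 at 73062501 to 73087500, and were 13.60 at 73187501, beyond 1 row without a value. On day 4 the same rows held 15.09, 16.38 and 15.92. In deposited ratios the crest reached 0.757 of its day 2 height on day 4.

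Set against the other steps between neighbouring bins of 1 Mb, the one at the boundary was of ordinary size. From 72 to 73 Mb to 73 to 74 Mb the median moved by a log2 of -0.63 on day 2 and -0.31 on day 4. Of the 20 steps between neighbouring bins with 10 or more windows, 10 were larger on day 2 and 11 on day 4; the median size was 0.67 and 0.33. The largest day 2 step, 1.18, was at 68 Mb, and the largest of day 4, -1.04, at 75 Mb.

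**Figure D3:**
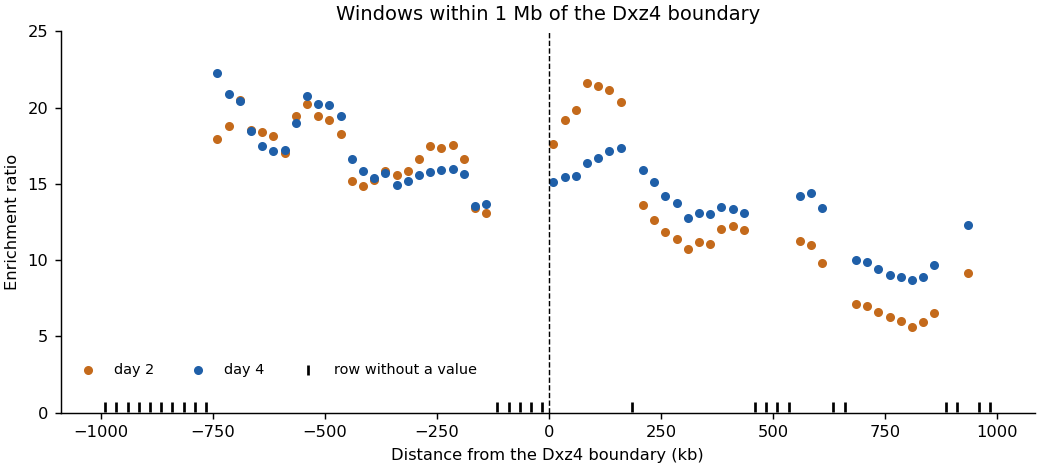
Enrichment ratio of each row within 1000 kb of the Dxz4 boundary against distance in kb, for both days; ticks at the foot mark rows without a value. Day 2 rises to 21.63 just distal of the boundary, where day 4 is at 16.38, and values fall on both days farther to the right.

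The fourth comparison set day 4 against day 2. Ratios were first set relative to the autosomal median of the day, and their log2 ratio, day 4 over day 2, was formed. The median of the stretch was 0.79 (quartiles 0.48 and 1.12), a fold of 1.73; for the rest of the X it was 0.89 (0.51 and 1.27), a fold of 1.86. In deposited ratios, without scaling, the median fold was 1.32 in the stretch and 1.42 on the rest of the X. Relative to the autosomes 688 of the 697 windows were higher on day 4. The same held for 3904 of the 3987 X windows and for 50704 of 90442 autosomal windows. The data come from bulk cells, so more cells with a coated X and more Xist on each X cannot be told apart. With 1 library per day, neither can be told apart from a difference between the libraries.

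Over 2-fold higher on day 4, relative to the autosomes, were 216 windows of the stretch (31.0%). The same held for 41.3% of all X windows and for 4.69% of all windows of the X and autosomes. In the stretch the share was therefore below that of the X and far above that of the genome. The share depended on the scaling: it was 10.8% in deposited ratios and 0% relative to the X outside the stretch. In deposited ratios 130 windows (18.7%) were lower on day 4, against 17.1% of X windows. Relative to the autosomes 9 were, against 83 of the 3987 X windows.

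The sides of the boundary differed in this measure. The proximal side had a median log2 ratio of 1.06 (quartiles 0.49 and 1.39), a fold of 2.09, and 137 of its 262 windows (52.3%) were over 2-fold higher. The distal side had 0.69 (0.47 and 0.91), a fold of 1.62, and 79 of 435 (18.2%) were over 2-fold higher. The difference of the medians, distal minus proximal, was -0.37. Scaling of the libraries does not enter this difference.

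That difference did not arise at the boundary. The proximal bins with the largest log2 ratios were 67 to 68 Mb with 1.57 (2.97-fold), 69 to 70 Mb with 1.48 (2.79-fold) and 66 to 67 Mb with 1.44 (2.72-fold). Those with the smallest were the 3 next to the boundary, 71 to 72 Mb at 0.33 (1.26-fold), 72 to 73 Mb at 0.39 (1.31-fold) and 70 to 71 Mb at 0.53 (1.44-fold). These 3 lay below the distal bins just beyond the boundary, 0.65 from 73 to 74 Mb and 0.78 from 74 to 75 Mb.

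The change between the large and the small ratios fell at 70 Mb, 2.99 Mb before the boundary. There the bin median dropped by 0.95, the largest of the 20 steps, while at the boundary it rose by 0.27, and 7 steps were larger than that. Row by row the log2 ratio went from 1.44 at 69912501 to 1.30 at 69987501, 0.99 at 70112501 and 0.52 at 70287501. Over that span the day 2 ratio rose from 10.18 to 21.78 while the day 4 ratio only went from 21.06 to 23.80, by way of 25.70 at 70112501. The step at 70 Mb was therefore a rise in the day 2 profile with a near level day 4 profile.

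Split at 70 Mb, a place chosen after the values were seen, the proximal side held unlike parts. The 172 windows from 60 to 70 Mb had a median log2 ratio of 1.33 (quartiles 0.996 and 1.50), and 129 of them (75%) were over 2-fold higher on day 4. The 90 windows from 70 Mb to the boundary had 0.38 (0.27 and 0.53), and 8 were over 2-fold higher. In deposited ratios 0 of the 172 and 50 of the 90 were lower on day 4, and relative to the autosomes 0 of either. A setting also added after the values were seen left out the 116 windows from 66 to 70 Mb. The difference between the sides then turned to 0.14, with the distal side the higher. Of those 116 windows 93 were over 2-fold higher on day 4, so leaving them out lowers the proximal median by choice. The turn is a description and no independent support.

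Distal bins with 10 or more windows were more alike. Their largest log2 ratios were 1.14 from 94 to 95 Mb (2.20-fold), at the edge of the stretch, 0.95 from 83 to 84 Mb and 0.89 from 87 to 88 Mb. Their smallest were 0.37 from 91 to 92 Mb, 0.49 from 75 to 76 Mb and 0.51 from 82 to 83 Mb. Among distal bins with fewer windows, 84 to 85 Mb (7 windows) had 1.30 and 89 to 90 Mb (8 windows) had 1.16, both above 1.14. The bin from 91 to 92 Mb, the highest of the stretch, had a deposited median of 30.47 on day 2 and 29.22 on day 4, so its increase relative to the autosomes, 1.30-fold, was no larger than the fall of the autosomal median.

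**Figure D4:**
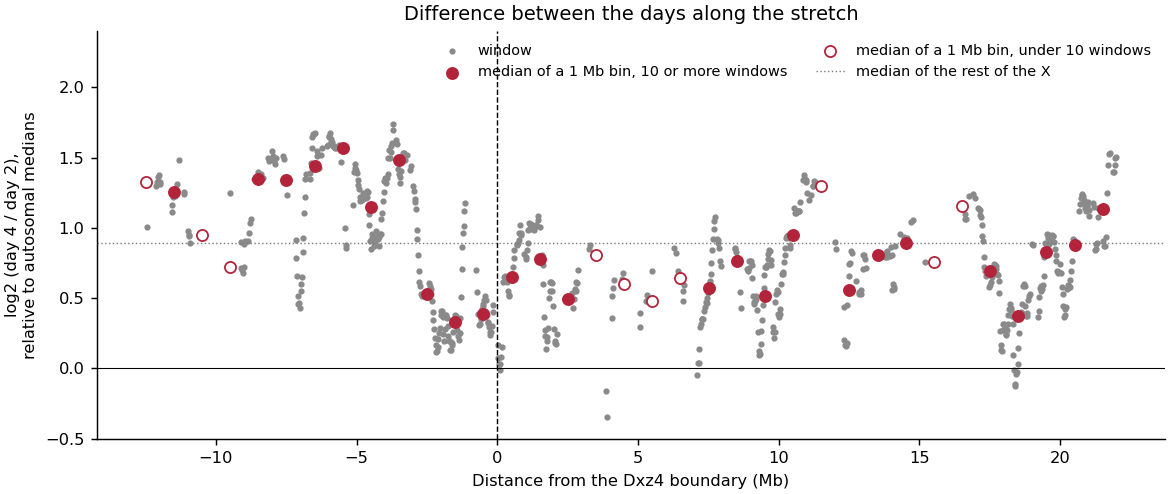
The log2 of day 4 over day 2, each relative to its autosomal median, for each window (grey) and as the median of each 1 Mb bin (red; open where a bin has under 10 windows), against distance from the Dxz4 boundary in Mb. The medians fall from 1.48 to 0.53 between the bins on either side of the place 2.99 Mb left of the boundary, and from 0.39 rise to 0.65 across the boundary itself.

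The log2 ratio went with the day 2 level, which is part of the ratio and so favours low ratios where day 2 was high. The windows were therefore set side by side within 4 classes of day 2 level, parted at the quartiles of the stretch. Between 7.28 and 12.24 on day 2, the 49 windows from 60 to 70 Mb had a median day 4 ratio of 18.87 and a log2 ratio of 1.50 (quartiles 1.40 and 1.58). The 124 distal windows of that class had 13.26 and 0.88 (0.65 and 1.08). Between 12.24 and 18.43 the log2 ratio was 1.20 (0.90 and 1.30) in 41 windows from 60 to 70 Mb, 0.47 (0.34 and 0.98) in 30 windows from there to the boundary and 0.69 (0.54 and 0.85) in 103 distal windows. At like day 2 levels the windows from 60 to 70 Mb thus had the higher day 4 values. That part was set apart after these same ratios were seen, so the comparison is a description and no independent support.

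In the other classes the windows from 60 to 70 Mb were again the highest in log2 ratio. In the lowest class, below 7.28, the log2 ratio was 1.35 from 60 to 70 Mb (64 windows) and 0.83 on the distal side (110 windows). In the highest, above 18.43, it was 0.94 from 60 to 70 Mb (18 windows), 0.36 from 70 Mb to the boundary (59 windows) and 0.37 on the distal side (98 windows). In that class the windows next to the boundary and the distal ones lay close together.

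**Figure D5:**
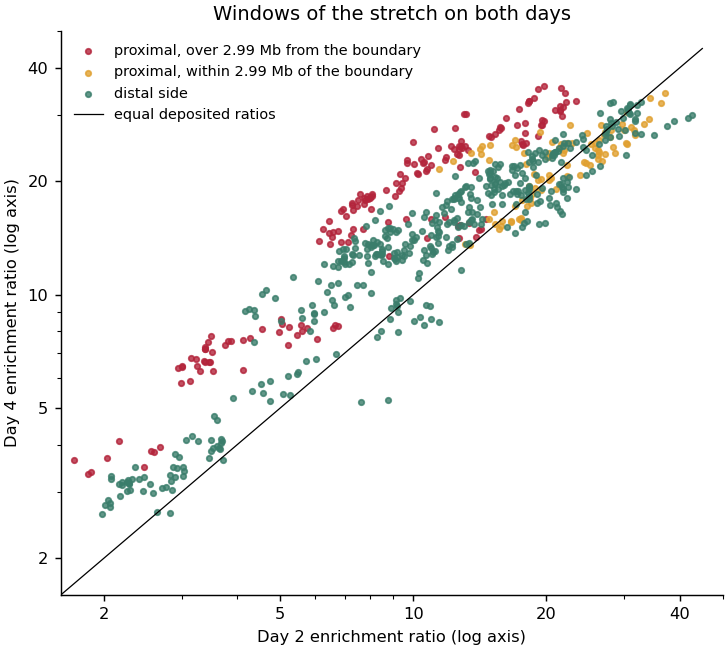
Day 4 against day 2 enrichment ratio of each window on log axes, coloured by part of the stretch, with the line of equal ratios. Windows more than 2.99 Mb proximal of the boundary all lie above the line; of those nearer to it on the proximal side 50 of 90 lie below the line.

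Crests of the profile were compared as places. A crest was a window that was the highest within 1 Mb on either side and above the X median of its day, a rule set after the values were seen. There were 10 on day 2 (3 proximal and 7 distal) and 7 on day 4 (2 proximal and 5 distal). At 2 places, 70737501 to 70762500 and 74712501 to 74737500, the same row was a crest on both days, and another pair, at 93137501 and 93162501, was 25 kb apart. The others were 175 kb or more from the nearest crest of the other day.

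Of the 10 day 2 crests, 7 were lower on day 4 in deposited ratios and 2 relative to the autosomal medians. The quotient of crest over the median within 500 kb was smaller on day 4 in 9 of the 10. At 74712501 the ratio went from 24.62 to 20.72, at 82312501 from 23.28 to 19.12, and at 85337501 from 10.91 to 9.34. The crest at 65887501 went from 14.59 to 15.92 while the median within 500 kb went from 10.18 to 14.61, so that it stood 1.43 times above its surroundings on day 2 and 1.09 times on day 4. The crest at 91387501 went from 1.42 to 1.04 times its surroundings. Choosing crests on their day 2 height favours a lower day 4 value there. Crests on the rest of the X were not counted. Whether these counts are particular to the stretch is therefore not known.

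Crests picked on day 4 had the opposite bias. Of the 7, 3 stood less far above their surroundings on day 4 than on day 2. They were at 70737501 (1.52 and 1.42 times), 74712501 (1.82 and 1.35 times) and 93162501 (1.80 and 1.37 times). These 3 were in the same row as a day 2 crest or 25 kb from one. They were thus picked on day 2 height as well, and do not bear on the bias. The other 4 stood farther above their surroundings on day 4. At 68387501 the ratio was 19.71 on day 2 and 35.88 on day 4, or 1.09 and 1.26 times the median within 500 kb. At 83562501 it was 13.79 and 22.69, or 1.13 and 1.28 times. At 82537501, which is 225 kb distal of the day 2 crest of that high part, it was 19.24 and 24.19.

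The order of windows was largely kept between the days. Spearman's rho of day 2 and day 4 was 0.89 over 178 windows of the stretch that do not overlap, and 0.89 over 820 of the rest of the X. It was 0.94 on the distal side (113 windows) and 0.78 on the proximal side (65 windows). The windows share their library and possibly an input, so these are descriptions.

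Nearness to the strongest day 2 site did not order the stretch. That site, at 100662501 to 100687500, lies 5.68 Mb beyond the right edge and 27.7 Mb from the boundary. The rank correlation (Spearman) of level with distance from it was -0.10 on day 2 and 0.02 on day 4 over the 178 windows. On the proximal side alone it was -0.79 and -0.56 (65 windows), although the bin median fell again in the last bin before the boundary. On the distal side it was -0.19 and -0.36 (113 windows). All windows of the stretch lie to the left of that site, so ranks by distance from it are ranks by position. On the proximal side, nearness to the site and nearness to the boundary therefore cannot be told apart.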

How the data were processed

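The members and bins were chosen with earlier results of these data known. Build mm9 and, as tools, bedtools, Picard, SAMtools 1.2, Bowtie2 2.2.9 and Trim Galore 0.4.1 are named per the submitters' processing notes. Their settings, the denominator of the ratio and the rule behind the flag are given in no source used here. The authors deposited 1 enrichment ratio and 1 flag (0 or 1) per row of 25 kb for each pulldown library. Rows with flag 1 were left out. Positions are counted from 1. Medians, quartiles and log2 ratios without a pseudocount were computed in Python 3.11.15 with pandas 2.3.3, NumPy 2.4.6 and SciPy 1.17.1; functions were tested on simulated data. Correlations used 1 row in 4. The regions named were the 3 highest and 3 lowest bins of 1 Mb per side, day and log2 ratio among bins with 10 or more windows, the highest and lowest windows, the longest high runs and gaps, and rows by the boundary; bins with fewer windows and other rows are named where they fill in the profile. Crests, the split at 70 Mb and the classes of day 2 level were added after the values were seen. No genome of build mm9 was used, so no sequence is given. Depth is unknown, so no counting interval can be given.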

Additional observations from a re-analysis of the deposited data

How the results depend on the processing

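For 12 results 127 alternative values were computed. Of them, 111 kept the direction and moved by less than the spread over 5 Mb blocks (for shares, the exact binomial interval). Blocks differ widely, so that spread is lenient. The interval treats windows of a library as if they were independent, which they are not. The alternatives reuse the same libraries and largely the same rows, so much of that agreement was built in. Counting rows without a value as 0 gave level ratios of 0 for stretch over rest of the X and for distal over proximal on both days, because more than 50% of rows in the stretch and on its distal side lack a value. With 1 row in 4 at 1 of the offsets, the day 4 ratio of the stretch to the rest of the X was 0.9997, on the other side of 1. The median log2 ratio of the days was 0.40 without scaling (0.30 distal), and -0.26 scaled to the X outside the stretch (0.012 proximal, -0.36 distal); the share over 2-fold was then 10.8% and 0%. The rho between the days was 0.79 without windows where 50% or more of nearby rows lack a value. Of settings added after seeing the data, leaving out 70 Mb to the boundary gave a distal over proximal ratio of 1.23 on day 2 and splitting at 70 Mb gave 1.45; leaving out 66 to 70 Mb turned the difference in log2 ratio to 0.14. Otherwise that difference lay between -0.70 and -0.26. No paired analysis was possible because there was 1 library per day. No library could be left out.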

Other observations

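Few windows were lower on day 4 relative to the autosomal medians, here as on the X as a whole: 9 of 697 against 83 of 3987. The left flank had 0 of 669 and the right flank 64 of 897. The 9 of the stretch were all distal. Of these, 5 were touching rows of the highest day 2 crest, from 91337501 to 91462500, with ratios of 35.04 to 42.67 on day 2 and 26.53 to 29.91 on day 4. The lowest log2 ratio of the stretch, -0.35, was at 76862501 to 76887500, with 8.76 on day 2 and 5.25 on day 4. That row and the one before it (7.60 and 5.20) stood alone in the low ground from 76 to 80 Mb, whose bin medians were 2.25 to 3.45 on day 2. The others were single rows, at 73062501 by the boundary and at 80087501.

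Between 70 Mb and the boundary, where most ratios were small, there were large ones at the left end, next to 70 Mb, and at a place farther right. In the latter, from 71637501 to 71862500, the log2 ratio rose from 0.25 to 1.18 within 9 rows. Day 2 fell there from 26.22 to 14.12. Day 4 rose from 23.84 at the start to 28.15 at 71712501 and was 22.82 at 71787501. It was 24.39 at the end, ahead of a gap without values up to 72237500.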
